A study of Mus musculus with 16 samples.

Results

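Brain cells share cholesterol and other lipids through particles built on apolipoproteins. Astrocytes secrete most of the apolipoprotein E of the brain, the ABC transporters of the cell membrane load lipid onto it, receptors of the LDL receptor family take the particles up again, and liver X receptors switch on several of these genes when oxysterols, the oxidised forms of cholesterol, accumulate. Lipid that is neither exported nor used is kept as neutral lipid in droplets coated by perilipins. Described here are 10 genes of that route in the mouse brain, out of the 55404 genes of the deposited table: the apolipoproteins Apoe and Apod, the transporters Abca1 and Abcg1, the receptor Lrp1, the lipase Lpl, the liver X receptors Nr1h2 and Nr1h3, and the droplet proteins Plin2 and Plin3. The genes were taken by name, but the list was chosen by someone who knew earlier results of these values, that is, of the difference in normalized value between Tecpr2 ki/ki and wt/wt mice. Apoe is also among the genes the study names as regulated. The genotype differences of these genes are therefore given as a description, without p-values.

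The samples were total RNA of whole brain from 8 Tecpr2 ki/ki and 8 wt/wt mice of 5 months, untreated, 1 library per mouse. The mice were male. Tecpr2 encodes a protein of the autophagy and secretory pathways, and its loss in people causes a sensory and autonomic neuropathy. The ki/ki mice are homozygous for a frameshift in Tecpr2 (L1152fs in the labels) made by CRISPR/Cas9 in C57BL/6J zygotes, present in every cell type, and the wt/wt mice carry the unedited gene. The value used throughout is the deposited normalized value of a gene in a mouse, a whole number from which differences in sequencing depth have been divided out. The values of a mouse sum to between 11964284 and 12252324, and the pattern that division and rounding left among low values implies 9.23 to 14.3 megareads on genes in ki/ki mice (median 12.0) and 10.1 to 15.4 megareads in wt/wt mice (median 13.1). Tecpr2 itself matched the labels, with values of 274 to 320 in ki/ki and 928 to 1002 in wt/wt mice. All markers of the cell types examined, from astrocytes to choroid plexus, had mean values of at least 1. In whole tissue, fewer cells of a type and less RNA per cell cannot be told apart.

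The 10 genes lie on 7 chromosomes, in the GRCm38 positions of the GENCODE annotation, and no 2 of them overlap. Apoe lies on chromosome 7 from 19696109 to 19699188 and Nr1h2 on the same chromosome from 44549616 to 44553951. Abca1 and Plin2 share chromosome 4, at 53030787 to 53159895 and 86648386 to 86670060. Abcg1 and Plin3 share chromosome 17, at 31057675 to 31117988 and 56277476 to 56292873. Apod lies on chromosome 16 from 31296192 to 31314808, Lrp1 on chromosome 10 from 127538161 to 127621148, Lpl on chromosome 8 from 68880491 to 68907448, and Nr1h3 on chromosome 2 from 91184061 to 91202834. Nr1h3 was the single gene of the list with exon bases that another gene also uses (1.35%, shared with Gm13783 on the same strand). At most 5.05% of the 31-base words in the transcripts of a gene recurred in another gene, a share reached by Plin2 with Gm12551.

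Liver X receptors bind DNA together with a retinoid X receptor, at a pair of hexamers in the same orientation, 4 bases apart. The promoters of Apoe, the gene after which the list is named, and of Abca1, a textbook target of these receptors, are shown to make that element visible. They are the 250 bases before the RefSeq start site on the minus strand, read 5′ to 3′, from chr7:19699189-19699438 for Apoe and chr4:53159896-53160145 for Abca1 (GRCm38.p6), with matches to 2 motifs in capitals.
Apoe: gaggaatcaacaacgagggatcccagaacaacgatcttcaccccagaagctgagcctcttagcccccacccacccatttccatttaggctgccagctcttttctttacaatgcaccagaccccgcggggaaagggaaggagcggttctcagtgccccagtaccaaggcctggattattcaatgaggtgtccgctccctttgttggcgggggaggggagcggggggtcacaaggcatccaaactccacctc
Abca1: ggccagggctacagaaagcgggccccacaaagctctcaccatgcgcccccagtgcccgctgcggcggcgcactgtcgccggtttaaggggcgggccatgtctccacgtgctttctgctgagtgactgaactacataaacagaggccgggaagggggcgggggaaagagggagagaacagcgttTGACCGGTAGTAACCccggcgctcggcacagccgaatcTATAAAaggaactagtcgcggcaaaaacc
The first capitals in Abca1 match the repeat, searched as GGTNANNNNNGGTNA on both strands, and lie on the reverse strand 67 to 53 bases before the start site. The second capitals are the TATA box, searched as TATAAA on both strands, 29 to 24 bases before the start. The repeat occurred in 204 of 32851 promoter windows of this length (0.621%), and the TATA box in 12.4%. RefSeq windows were at hand for 8 of the 10 genes, 11 windows in all. Abca1 was the only one of the 8 with the repeat, and the TATA box occurred in Abca1 and in a second window of Apoe. The letters of the repeat were chosen after the Abca1 window had been read, and a match describes letters, not binding.

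Per kilobase of merged exons, the mean levels of the 10 genes spanned from 2582 down to 15.3. Apoe stood first, at 2582 ± 152 per kilobase (SD over 16 mice), and its lowest mouse (2245) lay above every mouse of the other genes. Lrp1 followed at 623 ± 15.2 per kilobase and Apod at 571 ± 26.4, and the mice of these 2 genes overlapped in range. Abcg1 was at 161 ± 7.17 per kilobase, above Abca1 at 108 ± 5.79 and Nr1h2 at 106 ± 5.98, which overlapped each other. Plin3 stood alone at 46.4 ± 4.73 per kilobase. Plin2 (15.7 ± 2.29), Lpl (15.5, from 13.7 to 17.9) and Nr1h3 (15.3 ± 3.01) closed the order and could not be ranked, since their ranges overlapped. With the longest transcript as the length in place of merged exons, 6 of the 10 genes kept their place, Nr1h2 passed Abca1, and Lpl passed Plin2.

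**Figure D1:**
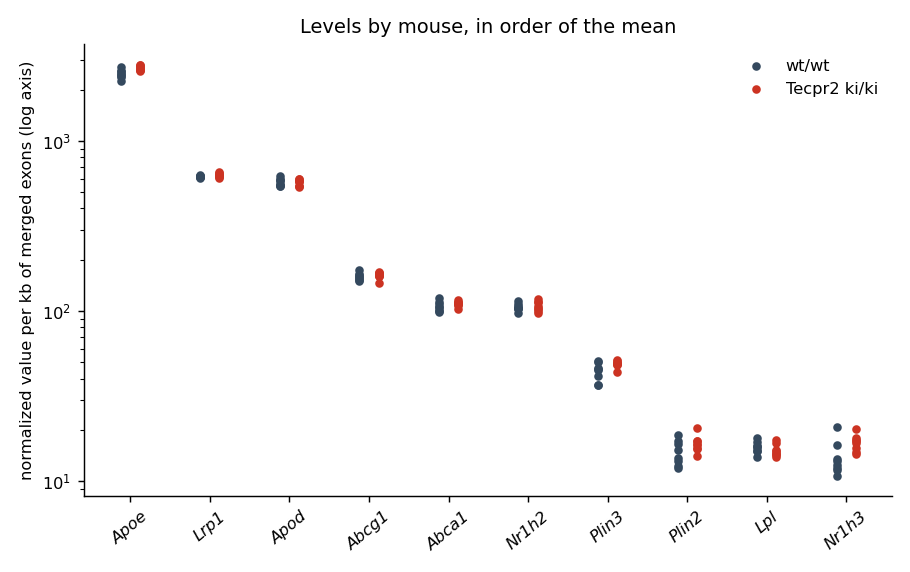
Normalized value per kilobase of merged exons of the 10 genes on a log axis, 1 point per mouse, wt/wt in dark blue and Tecpr2 ki/ki in red, ordered by the mean. Apoe lies above all others at 2582 per kilobase, and Plin2, Lpl and Nr1h3 overlap at the lower end.

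Across the list, the genotype differences ran from -0.06 to 0.30 on the log2 scale and the genotypes overlapped in every gene. Of the 10 genes, 8 had a higher mean in ki/ki mice and 2, Lpl and Apod, a lower one. None of the 10 passed an adjusted p of 0.1 in limma over all 23244 tested genes, where 31 genes, or 0.133%, did. The study, which tested with DESeq2 and not limma, names Apoe among its significantly upregulated genes. In limma, Apoe passed when wt/wt mouse 4 or 7 was left out. At an unadjusted p under 0.05 there were 4 of the 10 and 6.08% of the tested genes. All 10 had passed the filter on low values. Without overlap between the genotypes, the whole table held 20 genes, or 0.086%, and none of these 10. The median log2 fold change of ki/ki against wt/wt was 0.04 over the 10 genes and -0.00098 over all tested genes. As these genes were chosen with this comparison in view, nothing is read from the counts.

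**Figure D2:**
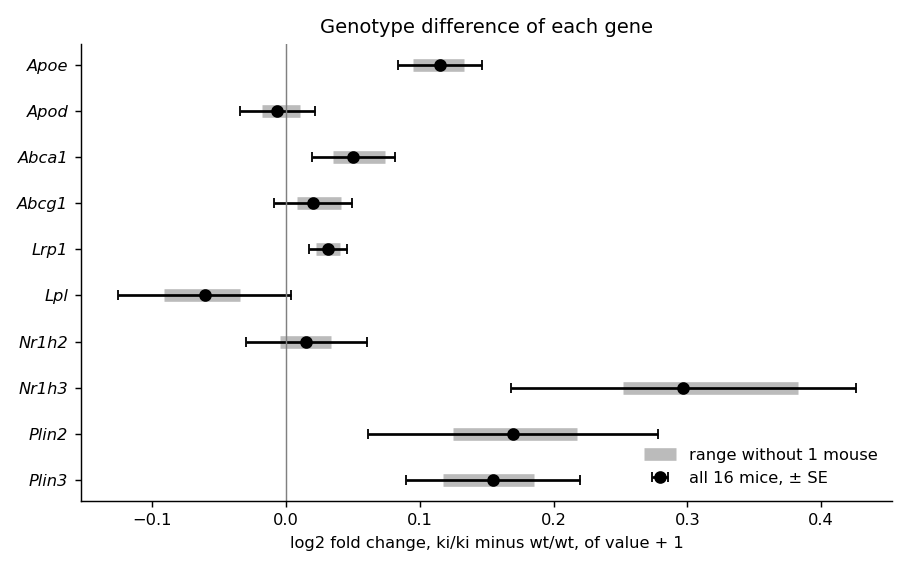
Log2 fold change of value + 1, ki/ki minus wt/wt, of each gene (point) with its standard error from limma (line) and the range when each mouse was left out in turn (grey bar). The differences run from -0.06 for Lpl to 0.30 for Nr1h3, and the grey bars of Apod and Nr1h2 cross 0.

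Apoe, the main apolipoprotein of brain lipoproteins, was the gene of the list with the clearest shift relative to its error. Its values in ki/ki mice 1 to 8 were 5940, 5648, 6010, 5795, 5788, 5532, 5619 and 5568, with a median of 5718. In wt/wt mice 1 to 8 they were 5498, 5278, 5507, 5775, 5082, 5177, 4800 and 5306, with a median of 5292. Of the wt/wt mice, 7 lay below every ki/ki mouse, while wt/wt mouse 4 at 5775 lay above 4 of the ki/ki mice, so that the groups overlapped through 1 animal. The mean was 8.20% higher in ki/ki, at 5738 ± 175 against 5303 ± 298 (SD, n = 8 each), a log2 fold change of 0.12 (SE 0.031). The log2 fold change was between 0.09 and 0.13 whichever mouse was left out.

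Apoe did not pass, but some markers of the glia that make it passed as higher in ki/ki. Of all tested genes, 0.133% passed in either direction. Of 8 astrocyte markers, 3 rose in ki/ki brain (Aqp4, Slc1a2 and Gfap, limma with Benjamini-Hochberg adjustment) and none passed as lower, with 6 of the 8 means higher in ki/ki and 2 lower. The sum of the 8 markers ran from 58117 to 60482 in ki/ki mice, with a median of 59026, and from 54554 to 58135 in wt/wt mice, with a median of 55836. No marker was at 0. Of 8 microglia markers, C1qa rose and none passed as lower, with 7 of the 8 means higher, and they summed to between 2154 and 2338 in ki/ki and between 1978 and 2174 in wt/wt mice. Within genotypes, Apoe did not follow the astrocyte markers detectably from mouse to mouse (r = 0.28, rho = 0.28, permutation p = 0.388 and 0.353, adjusted p = 0.813 and 0.774, 16 mice, r = 0.28 without the 2 mice farthest from the median of Apoe). Neuron markers went the other way. Of 7 neuron markers, Gad1 fell and none rose, with 6 of the 7 means lower in ki/ki, and their sum ran from 57864 to 60428 in ki/ki (median 58874) and from 58180 to 62402 in wt/wt mice (median 60267). The study names Gfap and C1qa as upregulated in these same mice, so their rise is not independent evidence. The marker lists, as the other lists, were chosen with earlier results of these data known. The part of these cell types in the Apoe difference was not tested.

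Apod, an apolipoprotein of the lipocalin family that oligodendrocytes and perivascular cells express, differed between genotypes by less than its standard error. Values ran from 1378 to 1541 in ki/ki mice (median 1490) and from 1393 to 1600 in wt/wt mice (median 1473). The 2 ranges covered each other almost completely. Its mean was 1468 ± 65.2 against 1475 ± 75.1 (SD, n = 8 each), a log2 fold change of -0.01 (SE 0.028).

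**Figure D3:**
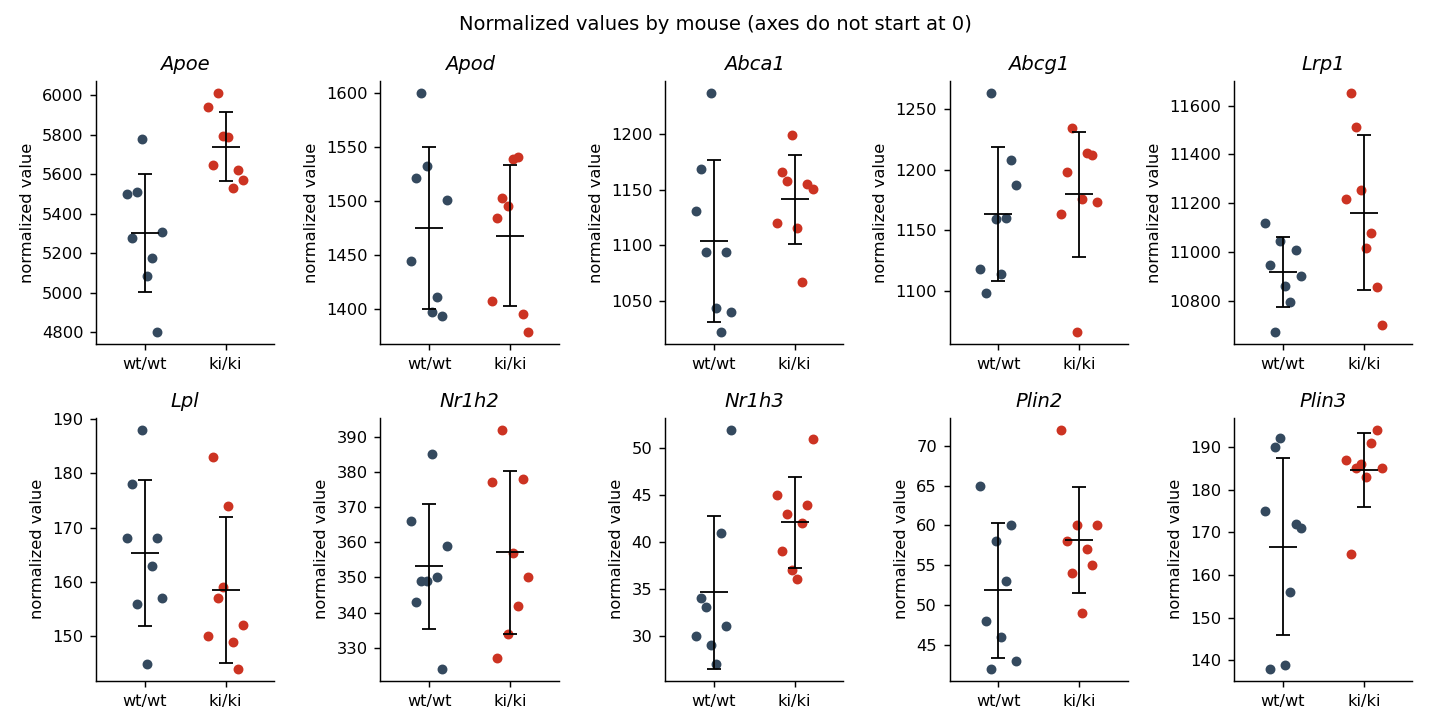
Normalized values of the 10 genes by mouse, 1 panel per gene with its own axis that does not start at 0, wt/wt in dark blue and ki/ki in red, with mean ± SD over 8 mice in black. In Apoe a single wt/wt mouse, at 5775, reaches into the ki/ki range, whereas the points of Apod, Abcg1 and Nr1h2 cover each other.

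Abca1 moves cholesterol and phospholipid onto lipid-poor apolipoproteins. In ki/ki mice 1 to 8 its values were 1120, 1166, 1158, 1199, 1116, 1067, 1155 and 1151. In wt/wt mice 1 to 8 they were 1131, 1169, 1094, 1237, 1044, 1022, 1094 and 1040, so that 3 wt/wt mice lay below every ki/ki mouse and the highest mouse of all was wt/wt. The log2 fold change was 0.05 (SE 0.031), with means of 1142 ± 39.8 and 1104 ± 73.0 (SD, n = 8 each). Abcg1, which passes cholesterol to particles that already carry lipid, ran from 1066 to 1234 in ki/ki (median 1187) and from 1098 to 1263 in wt/wt mice (median 1160), with a log2 fold change of 0.02 (SE 0.029). Here the lowest mouse of all was ki/ki mouse 4, at 1066, below every wt/wt mouse.

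Lrp1 is a large endocytic receptor that takes up Apoe-bearing particles into neurons and glia. Its values were the highest of the list per gene, without division by length, from 10702 to 11652 in ki/ki (median 11148) and from 10671 to 11119 in wt/wt mice (median 10924). The upper 4 ki/ki mice lay above every wt/wt mouse and the others within or near the wt/wt range. Its log2 fold change was 0.03 (SE 0.014), or 2.22% of the wt/wt mean. Lpl, which releases fatty acids from the triglyceride of lipoproteins, was the member with the largest lower mean in ki/ki. It ran from 144 to 183 in ki/ki (median 155) and from 145 to 188 in wt/wt mice (median 166), almost the same span, with a log2 fold change of -0.06 (SE 0.065). By NanoString, the study reports both Lpl and Apoe as raised in the hindbrain of older ki/ki mice. It also reports APOE protein as raised in their isolated microglia, and swollen axons in the medulla alone. The present values are of whole brain in younger mice, and how a local change would show in them was not tested.

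Of the liver X receptors, the widely expressed Nr1h2 (LXR beta) also differed by less than its standard error, at 327 to 392 in ki/ki (median 354) and 324 to 385 in wt/wt mice (median 350), with a log2 fold change of 0.02 (SE 0.045). Nr1h3 (LXR alpha), which macrophage-type cells and liver express more strongly, had the largest fold difference of the list and also the largest error. In ki/ki mice 1 to 8 its values were 45, 39, 43, 37, 36, 42, 44 and 51. In wt/wt mice 1 to 8 they were 30, 34, 33, 29, 27, 41, 31 and 52. Of the wt/wt mice, 6 lay below every ki/ki mouse, and wt/wt mouse 8 had the highest value of all. The log2 fold change was 0.30 (SE 0.129), with means of 42.1 ± 4.85 and 34.6 ± 8.19 (SD, n = 8 each). Only 30 to 45 reads per mouse lay behind these values. Within genotypes, Nr1h3 was higher in the shallower libraries (r = -0.62, rho = -0.54 with the depth factor, permutation p = 0.0128 and 0.0322, adjusted over the 10 genes 0.128 and 0.161, 16 mice), which did not pass the adjustment and fell to r = -0.19 without the 2 mice of the most extreme depth. Libraries of ki/ki mice were also the shallower ones, with a median factor of 0.991 against 1.08, and the part of depth in the Nr1h3 difference was not tested. Nr1h3 was not alone in this. Apod was higher in the deeper libraries (r = 0.50, rho = 0.56, permutation p = 0.0567 and 0.0304, adjusted p = 0.284 and 0.161). Without the 2 mice of the most extreme depth, Apod had r = 0.58, and Plin2 went from r = -0.26 to r = -0.63. None of the 10 genes passed the adjustment.

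Plin2 and Plin3 coat lipid droplets, Plin2 bound to them at all times and Plin3 moving to nascent droplets from the cytosol. Plin2 ran from 49 to 72 in ki/ki (median 57.5) and from 42 to 65 in wt/wt mice (median 50.5), with 4 wt/wt mice below every ki/ki mouse. Its log2 fold change was 0.17 (SE 0.108). Plin3 in ki/ki mice 1 to 8 was 187, 165, 185, 186, 183, 191, 194 and 185. In wt/wt mice 1 to 8 it was 175, 138, 190, 192, 139, 156, 172 and 171. The ki/ki mice lay close together apart from mouse 2, whereas the wt/wt mice spread down to 138, with means of 185 ± 8.65 and 167 ± 20.7 (SD, n = 8 each) and a log2 fold change of 0.15 (SE 0.065).

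Counting error and the spread between mice together set how finely each gene could be compared. For Apoe, between 4295 and 6834 reads per mouse gave a counting error of 1.35%, against a coefficient of variation of 3.05% among ki/ki and 5.62% among wt/wt mice. For Nr1h3 the counting error of 16.3% was as large as much of the spread (11.5% in ki/ki and 23.7% in wt/wt mice). The same held for Plin2, with 13.6% against 11.5% and 16.3%, for Lpl, with 7.88% against 8.46% and 8.13%, and for Plin3, with 7.56% against 4.69% and 12.4%. For these 4 genes a log2 difference as large as that of Apoe, 0.12, lies within 2 standard errors, so that it was not detectable with these mice at this depth. The counting errors cover counting only, and reads without molecular identifiers are not independent molecules.

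Whether the genes followed each other from mouse to mouse does not depend on the genotype difference, so it was tested on deviations from the genotype mean of log2(value + 1). Of 45 pairs of genes, 3 had an unadjusted permutation p under 0.05 and none passed an adjusted p of 0.05 over the 155 relations tested together, by r or by rho. The strongest pair was Abca1 and Lpl (r = 0.60, rho = 0.57, permutation p = 0.0163 and 0.0252, adjusted p = 0.536 and 0.620), with r = 0.51 without the 2 mice farthest from the median of Abca1. Apoe and Apod had r = 0.52 (rho = 0.57, permutation p = 0.0540 and 0.0316, adjusted p = 0.625 and 0.620, r = 0.38 without 2 mice). Apoe and Abca1, lipid carrier and loader, had r = 0.51 (rho = 0.50, permutation p = 0.0903 and 0.0749, adjusted p = 0.630 and 0.620, r = 0.38 without 2 mice). Coordinated expression of the 10 genes was not detectable with 16 animals.

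Of the 110 relations of a gene with a cell type score, the mean of log2(value + 1) over markers of that cell type, 1 passed. Abcg1 followed the markers of meningeal and perivascular fibroblasts (r = 0.79, rho = 0.84, permutation p = 0.00014 and 0.0001, adjusted p = 0.0217 and 0.0155, 16 mice). The relation was r = 0.80 without the 2 mice farthest from the median of Abcg1, r = 0.85 within ki/ki and r = 0.75 within wt/wt mice, and between 0.78 and 0.82 without any single mouse. The adjusted p no longer passed without ki/ki mouse 3, 4, 6 or 7 or without wt/wt mouse 1, 6 or 7. The mouse with the low Abcg1 value of 1066 also had the lowest fibroblast score of the ki/ki mice, 6.33, against up to 6.58 in the others. Apoe with the neuron score (r = 0.72, rho = 0.65, permutation p = 0.00522 and 0.0150, adjusted p = 0.370 and 0.620, r = 0.50 without 2 mice) and Apod with the score of oligodendrocyte precursors (r = -0.64, rho = -0.70, permutation p = 0.00717 and 0.00458, adjusted p = 0.370 and 0.355, r = -0.62 without 2 mice) did not pass. The fibroblast markers summed to between 754 and 985 in ki/ki and between 730 and 832 in wt/wt mice, and none of the 6 passed the genotype test.

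**Figure D4:**
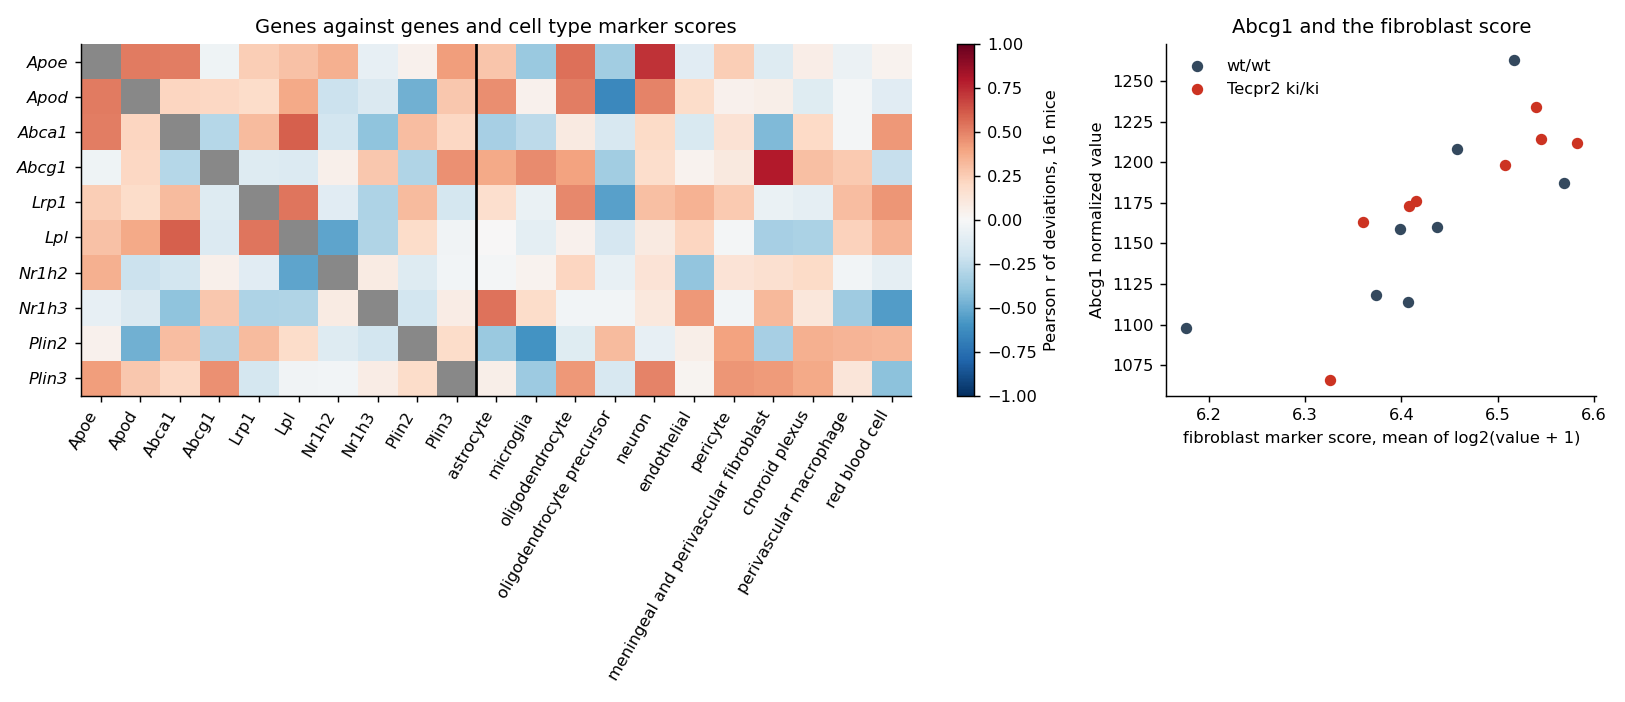
Left, Pearson r over 16 mice of deviations from the genotype mean, for the 10 genes (rows) against each other and against 11 cell type marker scores (columns right of the black line), red positive, blue negative, grey the gene itself. Right, Abcg1 normalized value against the fibroblast marker score, 1 point per mouse, the pair with r = 0.79.

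The genes whose values moved most like those of Apoe, among 11241 tested genes with a mean value of at least 100, were Ckb (brain creatine kinase, r = 0.89), Dctn1 (a dynactin subunit, r = 0.89), Fth1 (ferritin heavy chain, r = 0.88), Puf60 (a splicing factor, r = 0.87) and Brd2 (a chromatin reader, r = 0.85), as deviations from the genotype mean over 16 mice. For Apod they were Pde6d (r = 0.85), Eif3c (a translation initiation factor, r = 0.83), Mapk8ip3 (an axonal transport adaptor, r = 0.82), Tagln3 (r = 0.82) and Ilvbl (r = 0.82). None of these 10 genes belongs to the lipid lists examined. The highest of 11241 r values is high by selection, so these r values are a ranking without a test.

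The rest of the pathway was examined in 6 lists of 133 genes outside the 10, of which 132 were matched and 107 tested in the fit over all genes. In ki/ki brain 2 of the 107 (1.87%) rose and none fell, against 0.133% of all tested genes, and the median log2 fold change was 0.00036. Both genes that rose belong to the droplet list, and the lists were likewise written with results of these mice known. At an unadjusted p under 0.05 there were 10 of the 107, against 6.08% of all tested genes, the share to set beside each list's count at that p. Among 8 tested apolipoproteins and lipid transfer proteins none passed, with 1 at an unadjusted p under 0.05. Clu (apolipoprotein J), secreted by astrocytes as Apoe is, came nearest, at 5089 ± 235 in ki/ki against 4799 ± 145 in wt/wt mice (SD, n = 8 each), a log2 fold change of 0.08 (SE 0.022, adjusted p = 0.225), with 6 ki/ki mice above every wt/wt mouse. It passed with libraries scaled to the same total, with the replicate block and without ki/ki mouse 5. Pltp, a phospholipid transfer protein (log2 fold change 0.05, SE 0.045, adjusted p = 0.918), and Apoo (0.05, SE 0.053, adjusted p = 0.931) did not pass.

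None of the 21 receptors and adaptors of the LDL receptor family passed, with 11 above and 10 below 0 and a median log2 fold change of 0.00036, and 2 had an unadjusted p under 0.05. Among those of smallest p were Lrp10 (log2 fold change 0.12, SE 0.050, adjusted p = 0.762) and Sorl1, a sorting receptor (-0.03, SE 0.017, adjusted p = 0.875). Of 18 tested ABC lipid transporters none passed, also at an unadjusted p under 0.05, with Abcb4 (-0.14, SE 0.105, adjusted p = 0.902), Abca9 (0.07, SE 0.063, adjusted p = 0.918) and Abca7 (0.04, SE 0.041, adjusted p = 0.923) first by p. Partners and targets of the liver X receptors, 23 tested, also had none, with 2 at an unadjusted p under 0.05 and a median of -0.0037. First among them were Thrsp, a lipogenic gene (0.20, SE 0.077, adjusted p = 0.642), Rxrg, a retinoid X receptor (-0.14, SE 0.071, adjusted p = 0.820), and Cyp27a1, which makes an oxysterol (0.19, SE 0.097, adjusted p = 0.838). Of 14 lipases and fatty acid uptake genes none passed, also at an unadjusted p under 0.05, with Sel1l (-0.04, SE 0.023, adjusted p = 0.875) among those of smallest p, as was Lmf1, which matures lipases (0.08, SE 0.058, adjusted p = 0.902).

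Of 23 tested droplet genes, 2 rose in ki/ki brain, with a median of the list of 0.01. Aup1 encodes a protein of the droplet surface and the endoplasmic reticulum with a role in protein degradation. Its values in ki/ki mice 1 to 8 were 329, 305, 350, 330, 312, 281, 337 and 328. In wt/wt mice 1 to 8 they were 274, 279, 285, 274, 266, 260, 276 and 282, so that all ki/ki mice but mouse 6 lay above every wt/wt mouse. The log2 fold change was 0.22 (SE 0.048, adjusted p = 0.0159, limma), and adjusted p lay between 0.0036 and 0.0592 when each mouse was left out. In GRCm38 Aup1 lies on chromosome 6 from 83054521 to 83057808, and 22.99% of its exon bases overlap Htra2 on the other strand. Whether the counting used strand is not stated in the methods, and reads of both genes cannot then be told apart there. Htra2, a mitochondrial protease, was at 98.6 ± 9.97 in ki/ki and 91.5 ± 7.46 in wt/wt mice (SD, n = 8 each, log2 fold change 0.10, SE 0.082, adjusted p = 0.903). The study reports AUP1 protein as raised in isolated microglia of older ki/ki mice, which is another measure, cell population and age.

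Plin4, another perilipin of the droplet surface, had the larger rise. In ki/ki mice 1 to 8 its values were 149, 190, 152, 159, 169, 169, 167 and 154. In wt/wt mice 1 to 8 they were 98, 147, 88, 117, 146, 117, 151 and 131, so that 7 ki/ki mice exceeded every wt/wt mouse, and ki/ki mouse 1 at 149 lay just below the highest of them. The log2 fold change was 0.41 (SE 0.086, adjusted p = 0.0284, limma), with an adjusted p between 0.0035 and 0.0954 without any single mouse. Plin4 lies on chromosome 17 from 56100591 to 56109803 in GRCm38, and 0.294% of its exon bases overlap Hdgfl2 on the other strand. It is among the genes the study lists as regulated from these same mice, so its rise is not independent evidence. Aup1 comes from the same mice and the same list, and its rise is not independent evidence either. The third droplet gene by p, Spg20, which encodes the droplet-associated protein spartin, did not pass (0.10, SE 0.038, adjusted p = 0.614).

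**Figure D5:**
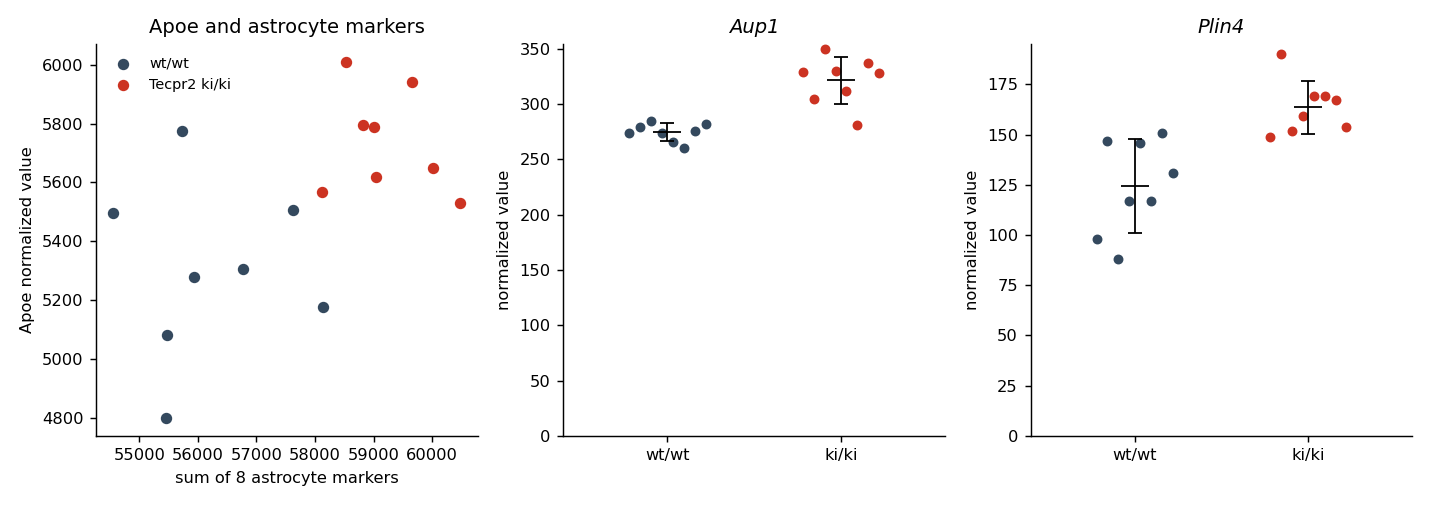
Left, normalized value of Apoe against the sum of 8 astrocyte markers, 1 point per mouse. Middle and right, normalized values of Aup1 and Plin4 by mouse with mean ± SD over 8 mice. The ki/ki mice lie at 58117 or more on the astrocyte axis, where 1 wt/wt mouse also lies, and 7 of 8 ki/ki mice exceed every wt/wt mouse in both Aup1 and Plin4.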

How the data were processed

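Whole brain RNA of 16 mice was sequenced as stranded total RNA libraries after ribosomal RNA depletion. The authors trimmed reads (Trim Galore 0.6.10, cutadapt 3.4), aligned them to GRCm39 (STAR 2.7.10b), counted them per gene and tested genes with DESeq2 1.40.2, per the methods and the submitters' processing notes. The authors deposited a score per gene and mouse, normalized between libraries on a linear scale and rounded. How they normalized is not given in the sources used here. All 16 columns were identical to the tables of single mice. Rounding blurs low values, and a count test was not run.

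Genes with values summing to over 16 and above 5 in at least 4 mice of a genotype were tested on log2(value + 1) with limma 3.58.1 in R 4.3.3 (trend, robust; genotype as the only term), with Benjamini-Hochberg adjustment over 23244 genes and a threshold of 0.1. A fold change on this scale understates the change of low genes. On simulated data, 200 of 200 changed genes were recovered, with 22 false calls among 23220 genes. The changed genes all had mean values above 200 and larger changes than any of the 10 genes in the main fit. Every simulated gene had the same spread between mice beyond counting, so genes of wider spread were not covered. Recovery of smaller changes, or of lower genes, was not tested. Correlations used deviations from the genotype mean and two-sided permutation tests of 100000 resamples within genotype (numpy 2.4.6, scipy 1.17.1), with scores over markers with a mean value of at least 10. With a mouse left out, the tests used 20000 resamples. Positions and lengths came from GENCODE for GRCm38, an earlier build than that of the alignment, and promoters from RefSeq. Figures were drawn with matplotlib 3.10.9.

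No pair of the 120 pairs of mice differed by less than counting noise (ratio of variances 1.34 to 2.10), so all were kept as separate samples. Genes and lists were chosen with earlier results of these data known. Named genes were Tecpr2, the 10 genes, wider-list genes at an adjusted p under 0.1, the 3 of smallest p in each wider list, and the 5 most alike to Apoe and to Apod. Some genes that fall under this rule are not reported here. Marker genes, and genes that share sequence or position with these, are named where a result touches them. The depth factors and their relation to the 10 genes, and the promoter motifs, were examined after the data had been seen. Alternatives were another pseudocount, no filter, no robust variance, 2 library scalings, a replicate block and leaving out each mouse.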

Additional observations from a re-analysis of the deposited data

Results flagged for a closer look

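Among 20 groups of 8 values, 2 held a mouse apart from the others by Dixon's ratio, where chance marks about 1 group in 20. Abcg1 in ki/ki mouse 4 was 1066, with the next mouse at 1163 (ratio 0.577). Plin3 in ki/ki mouse 2 was 165, with the next at 183 (ratio 0.621).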

How the results depend on the processing

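The log2 fold changes of the 10 genes moved by less than 1 SD between mice in all 23 alternatives. Leaving out 1 of 8 mice cannot move them that far. The filter, the robust variance and the replicate block leave the fold change as it is. Nothing is therefore read from that count. Apod and Nr1h2 changed sign without some single mice. Apoe passed the threshold in 4 of the 23 alternatives (no robust variance, the replicate block, and without wt/wt mouse 4 or 7). As Apoe was chosen with this comparison known, these passes are not support for a difference. Without the filter on low values 20 genes of 41926 passed over the whole table, against 31, a setting that tests more genes. Leaving out 1 mouse gave 25 to 40 calls, 2 or 3 wider lipid genes, 0 correlated pairs in every case and 0 or 1 relations with a cell type score. The third wider gene was Clu, called without ki/ki mouse 5. With libraries scaled to the same total and with the replicate block, 3 wider genes passed, Clu again the third. Same-numbered mice of the 2 genotypes correlated between -0.038 and 0.149 over 13779 genes, and 3 of 8 ki/ki mice matched their own number best. These values do not settle whether the numbers pair the mice, and the main fit did not pair them. A replicate block gave 46 calls. In the order by level, 6 of 10 genes kept their place with the longest transcript as length and 7 to 10 without a single mouse, the exchanges being between genes whose ranges overlap. Scaled to the same total, the same number of pairs and of relations with a cell type score passed, 0 and 1. Depth limits Nr1h3, Plin2, Lpl and Plin3 most.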
